A study of Mus musculus with 8 samples.

Results

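The genes of insulin signalling and glucose uptake Insr, Igf1r, Irs1, Irs2, Pik3r1, Akt1, Akt2, Tbc1d4, Slc2a4 and Foxo1 were followed in brown adipose tissue (BAT) of mice. They were chosen by name for their place in the pathway, with earlier results of these data known, and are 10 of the 31053 gene identifiers in the count table, and each matched 1 identifier. The study asked how obesity changes the cells of BAT and what part macrophages have in it. Mice lacking CD36, a fatty acid receptor, were among its models. Bulk RNA-seq was available for 4 libraries labelled WT and 4 labelled Cd36KO, from C57BL6/J mice given as 8 weeks old, with no treatment named for either group. The Cd36KO label does not name the kind of knockout. The study describes a germline knockout and mice that lose CD36 in Csf1r-Cre myeloid cells, and its text and legend assign the BAT transcriptome to the latter, at the age on the labels and with 4 mice per group, although its methods give these mice a later age. One Cd36KO count column has no replicate number and is named here as the unnumbered Cd36KO library.

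Insulin binds its receptor, which phosphorylates the IRS adaptor proteins, and these recruit PI3K to the membrane. PI3K then activates AKT, which phosphorylates TBC1D4 so that vesicles carrying the glucose transporter GLUT4 (Slc2a4) reach the cell surface, and also keeps the transcription factor FOXO1 out of the nucleus. Brown fat is known for its high insulin-stimulated glucose uptake, and most of the steps above are switched by phosphorylation and movement of proteins, which RNA levels do not report.

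Each library held between 2679785 and 4097953 counts, and the 10 genes had between 40 and 1483 raw counts per library. The sample labels name both brown adipose tissue and its stromal vascular fraction, the cells left after adipocytes are removed. Adipocyte transcripts were nonetheless abundant in every library, with Adipoq (adiponectin) at 2458 to 6294 normalized counts and Ucp1 (uncoupling protein of brown fat) at 4235 to 12313, where a normalized count is the count divided by the library's size factor. Skeletal muscle markers, 15 genes, summed to 62035 normalized counts in WT replicate 1, to between 1044 and 13850 in the other WT libraries and to between 440 and 9489 in Cd36KO. White fat markers, 8 genes with counts, summed to 810 in WT replicate 1, while the remaining WT libraries had 4341 to 5279 and Cd36KO had 702 to 1094. WT replicate 1 thus stood apart from its group on both lists. Cd36 itself was still detected in every Cd36KO library, at 1926 to 2384 normalized counts against 2412 to 3505 in WT, a log2 fold change of -0.48 ± 0.16 (SE) with a DESeq2 adjusted p of 0.0602. The 4 Cd36KO values all lay below the 4 WT values, but the counts do not show which exons they come from. Xist had 772 to 1588 raw counts in every library and the Y-linked gene Ddx3y at most 3, while the study's methods describe male mice.

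None of the 10 genes passed the test for a genotype difference. DESeq2 called 0 of 10 at an adjusted p under 0.05, where it called 2.95% of the 9619 genes that received an adjusted p. At an unadjusted p under 0.05 DESeq2 marked 2 of 10, Insr and Foxo1, beside 9.76% of all genes tested. edgeR's quasi-likelihood test also called 0 of 10, with a background of 0.143%, and marked 1 of 10 unadjusted beside 16.1% of all genes. limma, run on the log2 values that the authors deposited, called 0 of 10 beside 0.0% of all genes, and marked 2 of 10 unadjusted beside 15.7%. In no member did the 4 Cd36KO values lie wholly on one side of the 4 WT values, as they did for 10.9% of the 5528 genes with a mean of at least 50 normalized counts. The median log2 fold change of the members was -0.17, beside -0.01 over all genes with an adjusted p, with 7 members below 0 and 3 above. The 95% interval included a 2-fold fall for Irs1 and Irs2. For the other 8 members the interval stayed inside a 2-fold change in either direction.

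**Figure D1:**
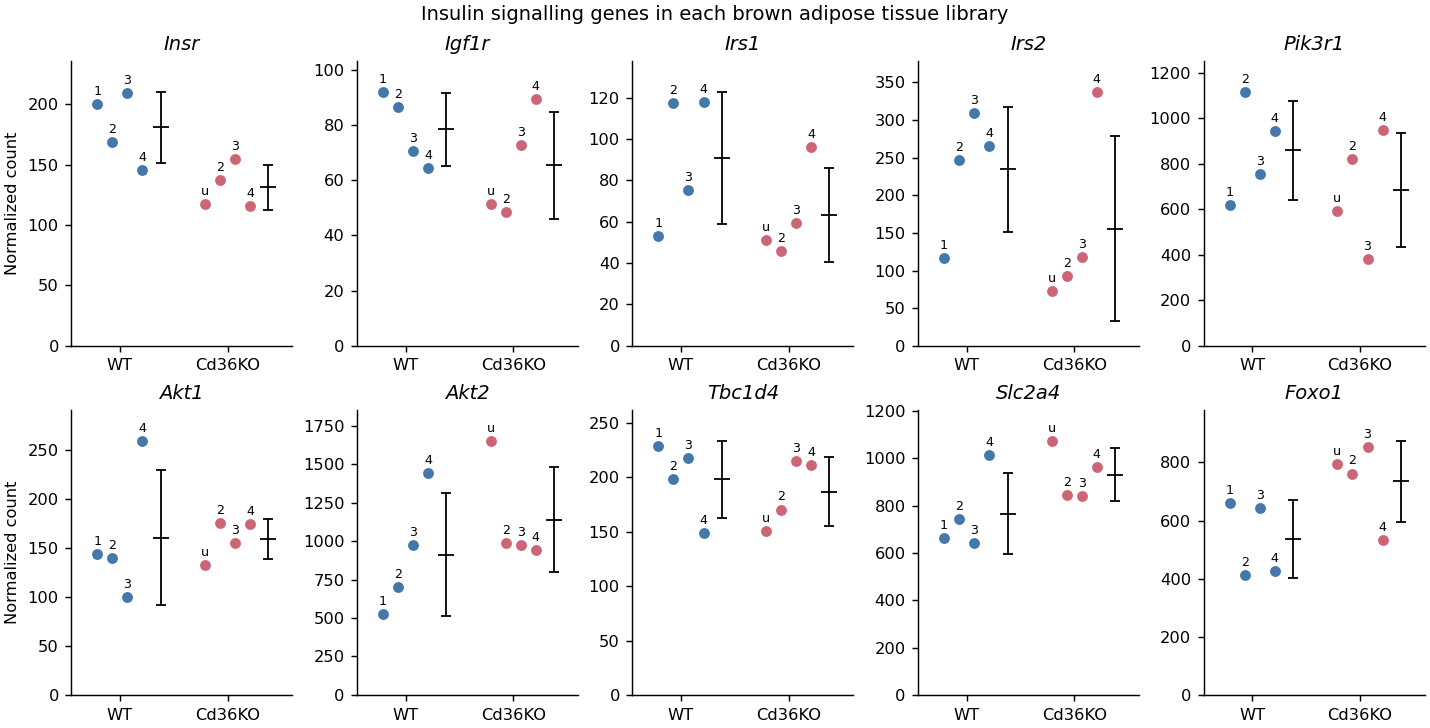
Normalized count (linear axis from 0) of each of the 10 genes in the 4 WT (blue) and 4 Cd36KO (red) libraries. Digits are replicate numbers, u is the unnumbered Cd36KO library, and black bars are the mean ± SD. In every panel at least 1 library of one group falls within the range of the other.

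At the receptor level, Insr (ENSMUSG00000005534, chr8:3122061-3279617, minus strand, GRCm38) encodes the insulin receptor. Its normalized counts were 200, 169, 209 and 145 in WT replicates 1 to 4, and 117, 137, 154 and 116 in the unnumbered Cd36KO library and Cd36KO replicates 2 to 4. In Cd36KO, 3 of the 4 libraries lay below every WT library, and Cd36KO replicate 3 lay above WT replicate 4. The mean was 181 ± 29.4 (SD, n = 4) in WT and 131 ± 18.3 in Cd36KO, a ratio of 0.724 with a 95% interval of 0.551 to 0.951. The DESeq2 adjusted p was 0.205, and a two-sided exact permutation test (4 against 4 libraries, 70 possible splits) gave p = 0.0571, where the smallest p it can give is 0.0286. In bulk tissue, fewer cells that express a gene and less RNA per cell cannot be told apart, here or for any gene below.

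Igf1r (ENSMUSG00000005533, chr7:67952827-68233668, plus strand) encodes the receptor for insulin-like growth factor, a close relative of the insulin receptor that signals through the same adaptors. Its counts were 92.1, 86.6, 70.6 and 64.3 in WT, and 51.3, 48.3, 72.6 and 89.2 in Cd36KO in the same order. The low values belonged to 2 Cd36KO libraries, while Cd36KO replicate 4 was above all WT libraries but 1. The ratio of 0.838 had an interval of 0.579 to 1.21, with a DESeq2 adjusted p of 0.732. Its log2 fold change of -0.25 became -0.45 without Cd36KO replicate 4 and -0.14 without Cd36KO replicate 2. With a white fat marker score as a covariate it was -0.62.

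The IRS adaptors carry the signal from either receptor to PI3K. Irs1 (ENSMUSG00000055980, chr1:82233101-82291416, minus strand) had 53.3, 117, 75.3 and 118 normalized counts in WT and 51.3, 46.0, 59.3 and 96.1 in Cd36KO. WT replicate 1 was as low as the low Cd36KO libraries, and Cd36KO replicate 4 was as high as the middle of WT. Its ratio was 0.70 (interval 0.448 to 1.09, DESeq2 adjusted p = 0.469). Irs2 (ENSMUSG00000038894, chr8:10984681-11008458, minus strand) had 116, 247, 309 and 266 in WT and 73.5, 93.2, 119 and 338 in Cd36KO. The highest of all 8 values was Cd36KO replicate 4, while the other 3 Cd36KO libraries and WT replicate 1 spanned 73.5 to 119. The SD of Irs2 on the log2 scale was 0.63 in WT and 0.96 in Cd36KO, and its ratio of 0.665 had an interval of 0.305 to 1.45 (DESeq2 adjusted p = 0.691). Without Cd36KO replicate 4 the log2 fold change moved from -0.59 to -1.30 and the DESeq2 adjusted p to 0.0127.

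Irs1 and Irs2 had like patterns across the libraries. Both were lowest in the unnumbered Cd36KO library and Cd36KO replicate 2, low in WT replicate 1 and Cd36KO replicate 3, and higher in the rest. Over the 8 libraries Pearson's r of log2(normalized count + 1) was 0.858 (exact permutation p = 0.0184) and Spearman's rho 0.786 (exact permutation p = 0.0279). With deviations from each group's mean r was 0.814, and without WT replicates 2 and 4, the libraries farthest from the median of Irs1, it was 0.935. It was 1 of 45 pairs of members compared, and after Benjamini-Hochberg adjustment over the 45 the permutation p-values were 0.139 for r and 0.209 for rho. Of 5527 other genes, 17 were as strongly related to Irs1 and 28 to Irs2.

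The sequences upstream of both genes are shown because both hold the same pair of motifs close together. RefSeq windows on GRCm38.p6 were available for 8 members, with 13 start sites in all, and Insr and Slc2a4 are named only. The windows below are the 250 bases before the start, 5′ to 3′ on the gene's strand, with capitals on the letters CACGTG, an E-box, and TGTTTTG, a form of the insulin response element that forkhead factors bind in other promoters. Irs1 is at chr1:82291440-82291689 and Irs2 at chr8:11008930-11009179, both on the minus strand, and the RefSeq start lies 23 bases upstream of the GENCODE M21 start for Irs1 and 471 bases upstream for Irs2.
Irs1: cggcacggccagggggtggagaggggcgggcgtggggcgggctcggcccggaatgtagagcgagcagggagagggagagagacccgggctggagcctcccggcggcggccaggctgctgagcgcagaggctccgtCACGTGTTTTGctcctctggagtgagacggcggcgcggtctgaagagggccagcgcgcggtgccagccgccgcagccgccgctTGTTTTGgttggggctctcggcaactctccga
Irs2: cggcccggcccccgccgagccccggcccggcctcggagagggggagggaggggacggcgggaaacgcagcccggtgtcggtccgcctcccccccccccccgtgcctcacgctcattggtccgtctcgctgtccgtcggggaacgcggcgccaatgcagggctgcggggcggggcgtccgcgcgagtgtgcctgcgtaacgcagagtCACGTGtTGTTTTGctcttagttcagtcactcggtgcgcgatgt

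In Irs1 the E-box began 115 bases before the start and overlapped a TGTTTTG that began at 111, with a second TGTTTTG at 32. In Irs2 the E-box began at 44 and TGTTTTG at 37. Both strands were searched. Among the 32851 windows of this length, 6.02% held CACGTG, 5.56% held TGTTTTG and 97 windows, 0.295%, held both. In 7 windows, 0.0213%, the motifs began within 10 bases of each other, and the windows of Irs1 and Irs2 were among these 7. No other member's window held either motif. The motifs and the distance were chosen after the common pattern of Irs1 and Irs2 had been seen, and a match of letters is a description, not a binding site.

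Downstream of the adaptors, Pik3r1 (ENSMUSG00000041417, chr13:101680563-101768217, minus strand) encodes p85α, the regulatory subunit of PI3K. Its counts were 618, 1117, 755 and 943 in WT and 591, 821, 381 and 948 in Cd36KO. The groups overlapped over most of their range, with Cd36KO replicate 3 the lowest value. The ratio was 0.798 (interval 0.552 to 1.15, DESeq2 adjusted p = 0.617). Its log2 fold change of -0.33 became -0.52 without Cd36KO replicate 4 and -0.12 without Cd36KO replicate 3.

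The kinases Akt1 and Akt2 act on many of the same substrates, with Akt2 the form most tied to glucose uptake in fat and muscle. Akt1 (ENSMUSG00000001729, chr12:112653821-112674884, minus strand) had 144, 139, 100 and 259 in WT and 133, 175, 154 and 174 in Cd36KO. All 4 Cd36KO values fell inside the WT range, and the ratio was 0.99 (interval 0.683 to 1.44, DESeq2 adjusted p = 0.987). Akt2 (ENSMUSG00000004056, chr7:27591552-27640826, plus strand) had 528, 698, 974 and 1443 in WT and 1652, 987, 974 and 943 in Cd36KO. In Cd36KO, 3 libraries lay close together in the middle of the WT range, and the unnumbered library was the highest of all 8. The ratio of 1.25 had an interval of 0.845 to 1.85 (DESeq2 adjusted p = 0.649). The log2 fold change fell from 0.32 to 0.09 without the unnumbered library and rose to 0.63 without WT replicate 4. With the white fat marker score as a covariate Akt2 was called higher at a log2 fold change of 1.54 (DESeq2 adjusted p = 0.0011). The white fat marker sum was 810 in WT replicate 1, near the 702 to 1094 of Cd36KO, and 4341 to 5279 in the remaining WT libraries. Genotype and this score are therefore told apart mainly by WT replicate 1, which had the lowest Akt2 value.

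Tbc1d4 (ENSMUSG00000033083, chr14:101442360-101609191, minus strand) encodes the Rab GTPase-activating protein that holds GLUT4 vesicles inside the cell until AKT phosphorylates it. It had 228, 198, 218 and 148 normalized counts in WT and 150, 170, 215 and 211 in Cd36KO. The ranges nearly coincided, and the ratio was 0.945 (interval 0.714 to 1.25, DESeq2 adjusted p = 0.906).

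Slc2a4 (ENSMUSG00000018566, chr11:69942539-69948188, minus strand) encodes GLUT4, the insulin-responsive glucose transporter of fat and muscle. Its counts were 665, 742, 641 and 1014 in WT and 1075, 845, 842 and 962 in Cd36KO. In WT, 3 libraries lay below all Cd36KO libraries, and WT replicate 4 lay above 3 of them. The mean was 766 ± 171 (SD, n = 4) in WT and 931 ± 111 in Cd36KO, a ratio of 1.22 (interval 0.948 to 1.56, DESeq2 adjusted p = 0.483, exact permutation p = 0.143). Without WT replicate 4 the log2 fold change went from 0.28 to 0.45 and the DESeq2 adjusted p to 0.0498. Muscle also expresses Slc2a4. WT replicate 1 had the highest muscle marker sum and the second lowest Slc2a4 value, and the part of muscle in the Slc2a4 values was tested only by a covariate. With the muscle marker score in the fit the log2 fold change was 0.44 (DESeq2 adjusted p = 0.406). With the white fat marker score instead it was 0.67 (DESeq2 adjusted p = 0.133).

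The genes whose pattern over the 8 libraries was most like that of Slc2a4, among 5527 with a mean of at least 50, were Pdhx (r = 0.989), Sdhaf1 (r = 0.981) and Ndufa9 (r = 0.980). They encode a component of the pyruvate dehydrogenase complex, an assembly factor of succinate dehydrogenase and a subunit of respiratory complex I. Pdhx had 241, 276, 231 and 510 normalized counts in WT and 636, 400, 407 and 468 in Cd36KO. As for Slc2a4, WT replicate 4 sat with the Cd36KO libraries. These r values describe genes picked for their likeness and carry no test.

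Foxo1 (ENSMUSG00000044167, chr3:52268336-52353221, plus strand) encodes the forkhead factor that AKT inactivates. It had 660, 414, 645 and 425 normalized counts in WT and 793, 762, 852 and 533 in Cd36KO. Again 3 Cd36KO libraries lay apart, above every WT library, and Cd36KO replicate 4 lay between the low and the high WT pair. The mean was 536 ± 135 (SD, n = 4) in WT and 735 ± 140 in Cd36KO, a ratio of 1.37 (interval 1.02 to 1.84, DESeq2 adjusted p = 0.271, exact permutation p = 0.143). With the white fat marker score as a covariate the log2 fold change went from 0.46 to 0.03.

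**Figure D2:**
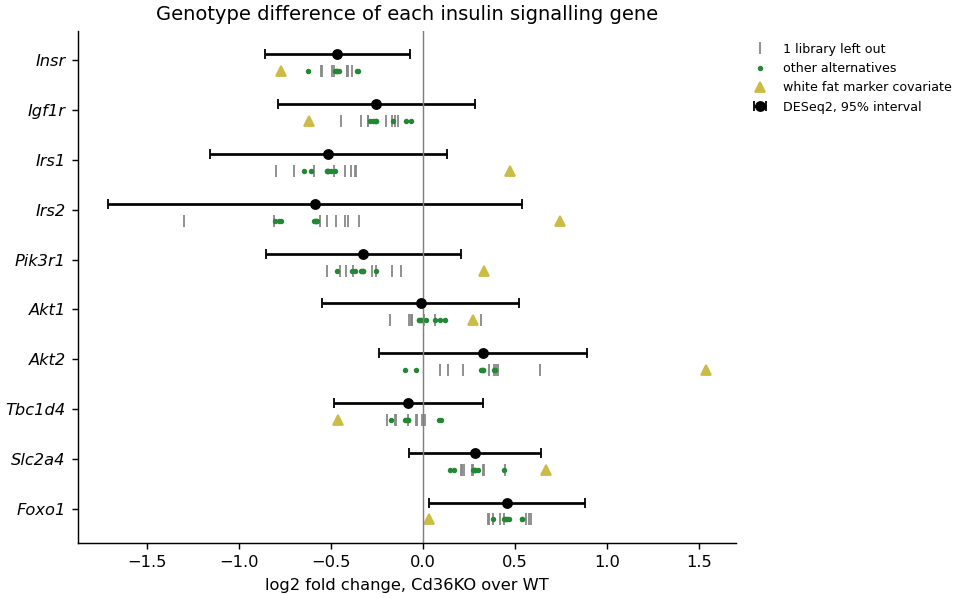
log2 fold change of Cd36KO over WT for each gene. Black points and bars are the DESeq2 estimate and its 95% interval, grey ticks are fits with 1 library left out, green dots are other alternatives and yellow triangles are the fit with the white fat marker score as a covariate. The intervals of Insr and Foxo1 do not reach 0 before adjustment, and the triangles of Irs1, Irs2, Pik3r1 and Akt1 lie on the other side of 0 from their black points.

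The values of Foxo1 were opposed to those of Irs1 over the libraries. In the libraries with the least Irs1, Foxo1 was high, and in WT replicates 2 and 4, with the most Irs1, it was lowest. Pearson's r of Irs1 and Foxo1 was -0.924 (exact permutation p = 0.00154) and Spearman's rho -0.81 (exact permutation p = 0.0218), with r of -0.906 within groups and -0.783 without WT replicates 2 and 4. Over the 45 pairs of members the adjusted permutation p was 0.0614 for r and 0.196 for rho. As few as 5 of 5527 other genes were as strongly opposed to Irs1, and 4 to Foxo1. Pik3r1 and Foxo1 were opposed too, at r = -0.828 (exact permutation p = 0.00895) and rho = -0.905 (exact permutation p = 0.00456), with adjusted permutation p-values of 0.134 and 0.103. Without WT replicate 2 and Cd36KO replicate 3 that r was -0.733, and within groups it was -0.807.

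Insr and Slc2a4 were opposed as well, with r = -0.92 (exact permutation p = 0.00273, adjusted 0.0614) and rho = -0.881 (exact permutation p = 0.00724, adjusted 0.109). Without WT replicates 1 and 3, r was -0.775, and within groups it was -0.913. No pair passed 0.05 after adjustment over the 45. Of the 5527 other genes, 45 were as strongly opposed to Insr and 61 to Slc2a4.

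**Figure D3:**
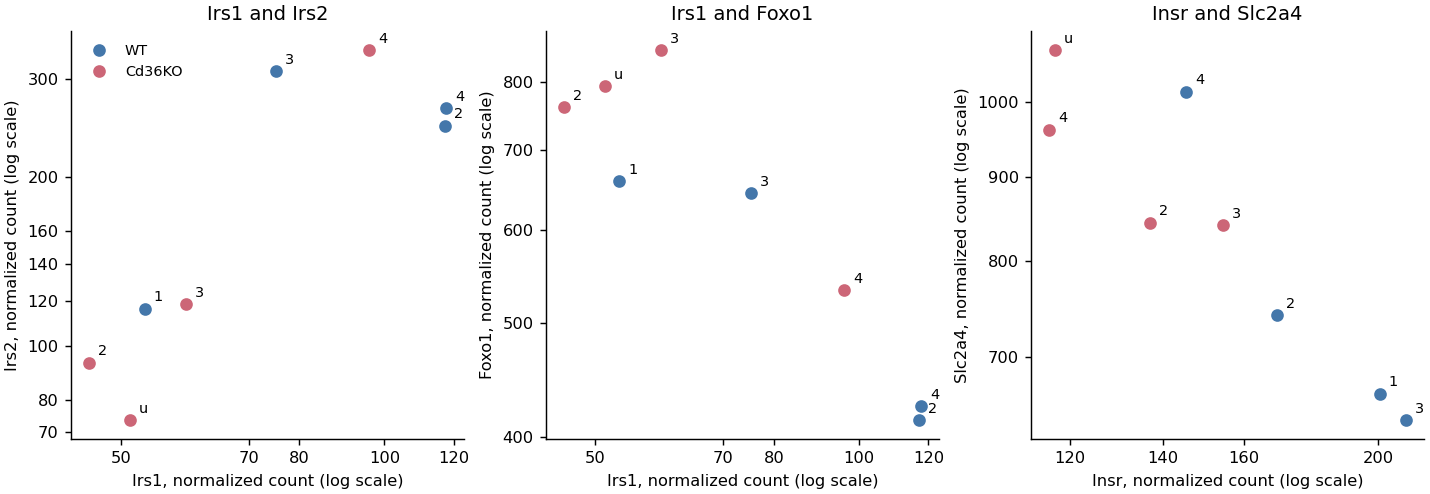
Normalized counts (log axes) of Irs1 against Irs2, Irs1 against Foxo1, and Insr against Slc2a4 in the 8 libraries, WT in blue and Cd36KO in red, with replicate numbers (u, the unnumbered Cd36KO library). The first pair rises together (r = 0.858), and the others run opposite (r = -0.924 and -0.92). In the Insr and Slc2a4 panel, WT replicates 1 to 3 lie apart from the Cd36KO libraries and WT replicate 4 lies among them.

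The libraries also differed in how long and short transcripts were represented. Among the members, Slc2a4 followed that difference most closely by Pearson's r, with Insr and Akt2 next. Genes with an adjusted p were split into 4 length groups of near-equal size by their longest transcript, up to 2250 bases in group 1 and from 4999 bases in group 4. For each library the median deviation from the gene mean in group 4 minus that in group 1 was taken on the log2 scale. This length difference was 0.35, 0.08, 0.20 and -0.21 in WT replicates 1 to 4, and -0.23, -0.01, -0.04 and -0.17 in the unnumbered Cd36KO library and Cd36KO replicates 2 to 4. The groups overlapped, with a mean of 0.11 ± 0.24 (SD, n = 4) in WT and -0.11 ± 0.10 in Cd36KO (exact permutation p = 0.143).

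Slc2a4, whose longest transcript has 3193 bases, fell as the length difference rose, with r = -0.961 (exact permutation p = 0.000347) and rho = -0.952 (exact permutation p = 0.00114), adjusted to 0.00347 and 0.0114 over the 10 members. Leaving out WT replicates 1 and 3 gave r = -0.992, and r within groups was -0.943. Insr, at 9355 bases, rose with it at r = 0.892 (exact permutation p = 0.00409, adjusted 0.0205) and rho = 0.81 (exact permutation p = 0.0218, adjusted 0.0931), with r = 0.746 without those libraries and 0.868 within groups. Akt2, at 4544 bases, had r = -0.845 (exact permutation p = 0.00947, adjusted 0.0316) and rho = -0.714 (exact permutation p = 0.0576, adjusted 0.144), with r = -0.879 without those libraries and -0.822 within groups. The relation for Irs1, Irs2, Pik3r1 and Foxo1 was weak over all 8 libraries, with r between -0.21 and 0.07, and exact permutation p-values of 0.606 to 0.947, although with deviations from each genotype's mean Irs1 had r = -0.692 and Foxo1 r = 0.663. Tbc1d4 had r = 0.725 (exact permutation p = 0.0447, adjusted 0.112) and rho = 0.786 (exact permutation p = 0.0279, adjusted 0.0931). Igf1r had r = 0.476 and Akt1 r = -0.549, with exact permutation p-values of 0.232 and 0.161. The length measure is built from all genes and was chosen after the values were seen. Among 5527 other genes, 0.489% were related to it as strongly and in the same direction as Slc2a4, 2.03% as Insr and 7.13% as Akt2. The part of transcript length in the results for Slc2a4, Insr and Akt2 was not tested further.

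Length moved with the genotype contrast over all genes too. The median log2 fold change was 0.09 in length group 1, 0.04 and -0.03 in groups 2 and 3, and -0.12 in group 4. In group 1 DESeq2 called 72 genes higher and 27 lower, and in group 4 10 higher and 61 lower. Insr, Igf1r, Irs1, Irs2, Pik3r1, Tbc1d4 and Foxo1, 7 of the 10 members, belong to group 4, and their median log2 fold change was -0.33. Foxo1, with a longest transcript of 8665 bases, was the one of the 7 with a value above 0.

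**Figure D4:**
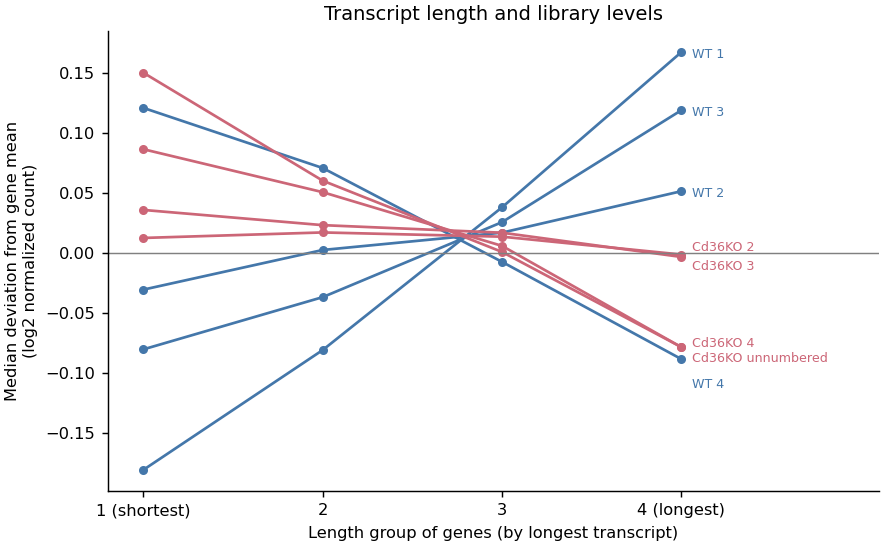
Median deviation from the gene mean (log2 normalized count) of genes in 4 groups of transcript length, 1 line per library, WT in blue and Cd36KO in red. WT replicates 1, 2 and 3 rise from group 1 (shortest) to group 4 (longest), and WT replicate 4 falls alongside the Cd36KO libraries.

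Ratios of related genes within a library do not depend on its size factor, and none of the 4 examined differed between the groups beyond their spread. Irs2 over Irs1 was 2.19, 2.11, 4.11 and 2.26 in WT and 1.43, 2.03, 2.0 and 3.52 in Cd36KO, a log2 difference of -0.27 (exact permutation p = 0.40, adjusted over the 4 ratios 0.629). Akt2 over Akt1 was 3.68, 5.01, 9.74 and 5.57 in WT and 12.5, 5.64, 6.30 and 5.43 in Cd36KO, a log2 difference of 0.32 (exact permutation p = 0.457, adjusted 0.629). The unnumbered Cd36KO library and WT replicate 3 were the high values of that ratio. Insr over Igf1r was 2.18, 1.95, 2.97 and 2.26 in WT and 2.28, 2.83, 2.13 and 1.30 in Cd36KO, a log2 difference of -0.17 (exact permutation p = 0.629, adjusted 0.629). Slc2a4 over Slc2a1, the basal glucose transporter GLUT1, ranged from 52.6 to 182 in WT and from 56.5 to 412 in Cd36KO (log2 difference 0.42, exact permutation p = 0.571, adjusted 0.629). That ratio rests on 2 to 14 raw counts of Slc2a1 per library. As counts are not scaled to transcript length, the size of a ratio does not say which gene of a pair is more abundant.

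Around the 10 genes, 164 further genes were grouped in 10 lists by their place in the pathway, and 137 of them had an adjusted p. DESeq2 called 6 of the 137, or 4.38%, of which Rala and Sh2b1 were higher (1.42% of all genes were) and Igfbp4, Lrp1, Txnip and Pck1 lower (1.53% of all genes were). edgeR and limma tested 141 of the listed genes and called 0, with 35 and 33 at an unadjusted p under 0.05, beside 16.1% and 15.7% of all genes. In DESeq2 33 of the 161 with a count had an unadjusted p under 0.05, 12 higher and 21 lower, beside 9.76% of all genes. With the white fat covariate 14 listed genes were called, and none of these 6 was among them. The median log2 fold change was 0.00, and the groups did not overlap for 14 of the 105 genes with a mean of at least 50, or 13.3%. The corresponding shares of all genes were 2.95% called and 10.9% without overlap.

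**Figure D5:**
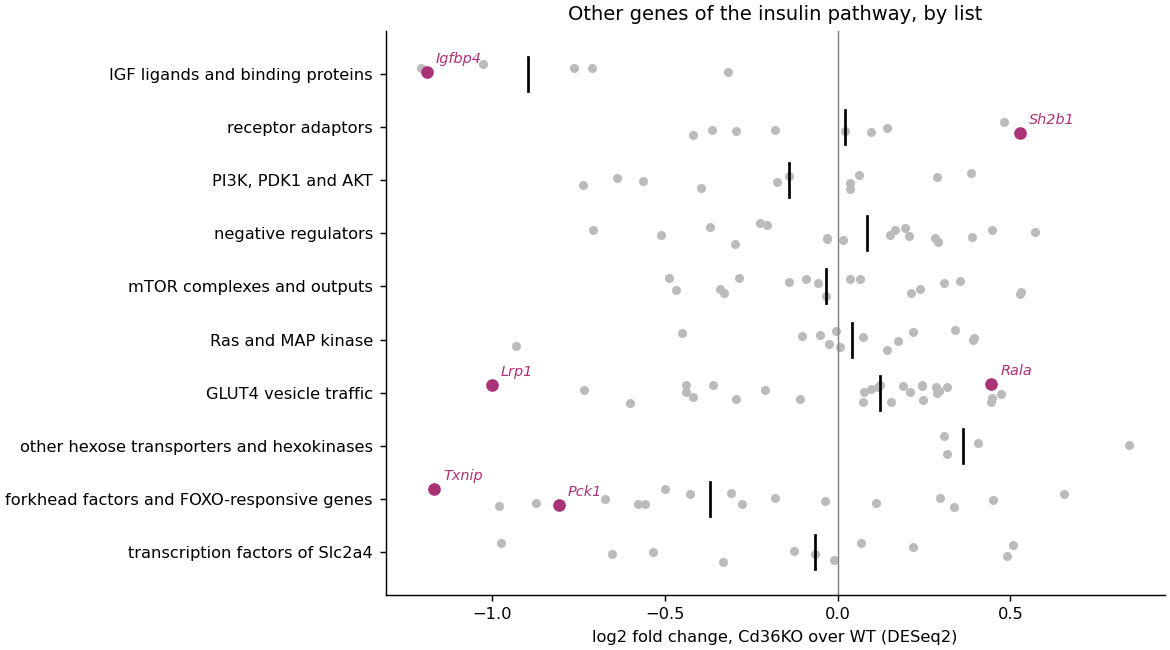
log2 fold change (Cd36KO over WT, DESeq2) of the other pathway genes with an adjusted p, 1 point per gene and 1 row per list, with vertical scatter for legibility only. Purple points have an adjusted p under 0.05 and black bars are list medians. The 6 purple points fall in 4 lists, and the IGF list has the lowest median (-0.89).

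Among the ligands and binding proteins of the IGF system, 1 of the 6 genes with an adjusted p was called lower and none higher, and 5 of the 9 with a count had an unadjusted p under 0.05, all lower. Of all genes 1.53% were called lower and 9.76% had such an unadjusted p. Igfbp4, a secreted protein that binds IGF and limits its access to the receptor, had 82.1, 275, 366 and 380 normalized counts in WT and 136, 154, 104 and 90.0 in Cd36KO (log2 fold change -1.19 ± 0.37 SE, DESeq2 adjusted p = 0.0445). WT replicate 1 was the lowest library of all. The call held in 7 of 17 alternatives, and the exact permutation p was 0.143. Igf1, the growth factor itself, was at 136, 441, 576 and 406 in WT and 179, 176, 129 and 280 in Cd36KO (log2 fold change -1.03, DESeq2 adjusted p = 0.0815), again with WT replicate 1 among the Cd36KO values, and was called lower in 4 of 17 alternatives. The white fat marker sum had the same low value in WT replicate 1. With that score as a covariate the log2 fold changes were 0.98 for Igfbp4 and 0.92 for Igf1, while without WT replicate 1 they were -1.50 and -1.31, both called lower (DESeq2 adjusted p = 3.5e-08 and 1.5e-05).

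Of 9 receptor adaptors with an adjusted p, 1 was called, and 4 of 11 with a count had an unadjusted p under 0.05, 2 in each direction, beside 2.95% and 9.76% of all genes. Sh2b1, which binds the insulin receptor and enhances its signalling, had 159, 141, 145 and 170 in WT and 228, 205, 223 and 230 in Cd36KO. Every Cd36KO value was above every WT value, with a log2 fold change of 0.53 ± 0.16 SE (DESeq2 adjusted p = 0.0450, exact permutation p = 0.0286). The call held in 2 of 17 alternatives, and the log2 fold change stayed between 0.49 and 0.60.

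GLUT4 vesicle traffic had 29 genes with an adjusted p, of which 1 was called higher and 1 lower, beside a list median of 0.12, and 7 of 32 with a count had an unadjusted p under 0.05, 4 higher and 3 lower. The shares of all genes were 2.95% called and 9.76% unadjusted. Rala encodes a small GTPase that helps dock GLUT4 vesicles at the membrane. It had 679, 780, 746 and 761 normalized counts in WT and 1097, 944, 1002 and 991 in Cd36KO, with no overlap (log2 fold change 0.44 ± 0.13 SE, DESeq2 adjusted p = 0.0252). Lrp1, a lipoprotein receptor present in GLUT4 vesicles, had 187, 215, 299 and 171 in WT and 68.0, 125, 135 and 107 in Cd36KO (log2 fold change -1.0 ± 0.26 SE, DESeq2 adjusted p = 0.0106). All its Cd36KO values lay below all WT values. The call held in 9 of 17 alternatives for Lrp1 and in 5 of 17 for Rala.

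Among forkhead factors and genes that respond to FOXO proteins, 2 of 18 with an adjusted p were called lower and none higher, and 6 of 20 with a count had an unadjusted p under 0.05, 1 higher and 5 lower, beside 1.53% of all genes called lower and 9.76% unadjusted. Pck1, the PEPCK enzyme that insulin represses and that supplies glycerol phosphate for triglyceride in fat, had 1797, 2648, 2209 and 2876 in WT and 833, 1652, 1502 and 1462 in Cd36KO. The groups did not overlap, and the log2 fold change was -0.81 ± 0.23 SE (DESeq2 adjusted p = 0.0231), called in 10 of 17 alternatives. With the white fat covariate it was -0.46 (DESeq2 adjusted p = 0.472). Txnip, which restrains glucose uptake, had 1105, 1284, 594 and 1408 in WT and 175, 552, 580 and 647 in Cd36KO (log2 fold change -1.17 ± 0.34 SE, DESeq2 adjusted p = 0.0316). The unnumbered Cd36KO library was far below the rest, and without it the log2 fold change was -0.89 and the DESeq2 adjusted p 0.0537. The call held in 6 of 17 alternatives. The median of this list was -0.37.

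In the remaining lists DESeq2 called no gene, and their counts at an unadjusted p under 0.05 stand beside 9.76% of all genes tested. Of 11 genes of PI3K, PDK1 and AKT, 1 had an unadjusted p under 0.05, and the 2 most abundant, Gsk3b and Pdpk1, had log2 fold changes of 0.06 and -0.14 (DESeq2 adjusted p = 0.901 and 0.814). Of 18 negative regulators with an adjusted p, such as phosphatases and TRIB pseudokinases, Ppp2ca was at 0.21 and Trib1 at 0.39 (DESeq2 adjusted p = 0.511 and 0.369), and 2 of the 22 with a count had an unadjusted p under 0.05. Trib1 was called higher in 2 of 17 alternatives, at 0.57 without WT replicate 4 and 1.03 with the white fat covariate. Among 17 genes of the mTOR complexes and their outputs, Deptor was at 0.31 and Eif4ebp1 at -0.47 (DESeq2 adjusted p = 0.67 and 0.467), with 1 of 19 unadjusted. Deptor was at 0.0027 without Cd36KO replicate 4 and was called at 1.39 with the white fat covariate. Eif4ebp1 was at -0.21 without WT replicate 4, and was called at -0.71 without WT replicate 1 and at 1.07 with the white fat covariate. For 14 Ras and MAP kinase genes, Mapk3 was at 0.39 and Map2k2 at 0.17 (DESeq2 adjusted p = 0.336 and 0.712), with 2 of 14 unadjusted. Of the other hexose transporters and hexokinases 4 had an adjusted p, with Hk2 at 0.31 and Hk1 at 0.41 (DESeq2 adjusted p = 0.464 and 0.482), with 1 of 11 unadjusted. The 11 factors known to act on Slc2a4 that had an adjusted p included Cebpa at -0.13 and Thra at 0.22 (DESeq2 adjusted p = 0.888 and 0.627), with 4 of 12 unadjusted, 1 higher and 3 lower. Cebpa was at 0.16 without WT replicate 4 and was called at 1.27 with the white fat covariate. Single libraries also moved uncalled values here, Mapk3 to 0.21 and Hk2 to 0.16 without the unnumbered Cd36KO library, Thra to 0.11 and Map2k2 to 0.10 without WT replicate 1, and Pdpk1 to -0.27 without WT replicate 4.

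Among the marker lists, calls were made in the brown and white fat lists. Of 10 brown adipocyte markers 4 were called higher, beside 1.42% of all genes, and their sum was 17778 to 23285 normalized counts in WT and 31714 to 40431 in Cd36KO with no overlap. Of 7 white fat markers with an adjusted p 6 were called lower, beside 1.53% of all genes. For the 8 general adipocyte markers the sums overlapped, at 37100 to 79472 in WT and 39640 to 58931 in Cd36KO, as did those of the 10 endothelial markers, at 1178 to 1937 and 1353 to 2006, and of the 11 macrophage markers, at 599 to 899 and 677 to 972. No gene of those lists was called, nor of the skeletal muscle, stromal progenitor, lymphocyte, blood and Schwann cell lists. The sums of the stromal progenitor markers were 1895 to 2393 in WT and 1707 to 2036 in Cd36KO, of lymphocyte markers 24.7 to 63.7 and 48.8 to 57.9, of blood markers 4615 to 8591 and 4836 to 16259, and of Schwann cell markers 285 to 366 and 166 to 292. The part of the white fat markers in the levels of the insulin genes was tested only by the fits with that score as a covariate. The part of the brown fat markers was not tested.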

How the data were processed

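Per the study's methods, single-end reads were trimmed with bbduk, aligned with STAR and counted with HTSeq-count, whereas the submitters' processing notes name Trimmomatic and HISAT2. The deposited counts are raw whole numbers per gene. A table of log2 values that the authors deposited equals log2(count divided by size factor + 1). The strand setting and molecular identifiers are not given in the sources used here. Symbols and coordinates came from GENCODE M21 (GRCm38), which matched 31011 of 31053 identifiers, with 296 counts unmatched.

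Genotype was tested with DESeq2 1.42.0 in R 4.3.3, with Benjamini-Hochberg adjustment over all genes at a threshold of 0.05. edgeR 4.0.16, limma 3.58.1, other filters and factors, marker covariates, a replicate block and leaving out each library were alternatives. Ratios, correlations and single values used exact two-sided permutation tests (SciPy 1.17.1). Only DESeq2 and edgeR were checked on simulated counts. These were drawn with the same dispersion for every gene, so the check does not cover the spread between the real libraries. Libraries of 1 group differed beyond sampling noise. The study's legend gives 4 mice per group.

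The members and lists were chosen with earlier results of these data known, and the length groups, motifs and member pairs after seeing the values. From each list every called gene was named, up to the 3 with the largest change, filled to 2 with the most abundant genes, and 1 gene so named is not reported here. The genes most like Slc2a4 were the 3 with the highest r. Coordinates are 1-based.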

Additional observations from a re-analysis of the deposited data

Results flagged for a closer look

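In groups of 4 libraries, a library was marked when its gap to the nearest other, divided by the range of the group, was above Dixon's 95% critical value. Of 68 groups examined 4 were marked, where chance gives about 3.4. Of these, 3 fell on the unnumbered Cd36KO library. On the log2(normalized count + 1) scale Akt2 was 10.69 there, against 9.88 to 9.95 in the other Cd36KO libraries. Pdpk1, the kinase that activates AKT, was 7.42 there, against 7.84 to 7.88. Txnip was 7.46 there, against 9.11 to 9.34. The fourth was the log2 ratio of Irs2 over Irs1 in WT replicate 3, at 2.04 against 1.08 to 1.18 in the other WT libraries.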

How the results depend on the processing

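No member was called with edgeR, limma, TMM factors, either filter, the replicate block or the muscle marker covariate. One was called higher without WT replicate 4 (Slc2a4) and with the white fat covariate (Akt2), and 1 lower without Cd36KO replicate 4 (Irs2), so the range over libraries left out was 0 to 1 in each direction. Of 80 fits of members with 1 library left out, 74 kept direction and call, as did 77 of the 90 other fits. With the white fat covariate the log2 fold change turned to 0.47 for Irs1, 0.74 for Irs2, 0.33 for Pik3r1, 0.27 for Akt1, 0.98 for Igfbp4, 0.92 for Igf1, 1.07 for Eif4ebp1, 1.27 for Cebpa and -0.019 for Gsk3b. Akt1, near 0, also turned with the muscle covariate (0.090) and limma (0.066), and ran from -0.18 to 0.31 over libraries left out. Tbc1d4 ran from -0.20 to 0.0093, Gsk3b from -0.017 to 0.13 and Cebpa from -0.37 to 0.16. Among WT libraries only WT replicate 1 had a white fat marker sum near those of Cd36KO. The fit with that covariate therefore tells score and genotype apart mainly through this library. The causes of these turns were not tested.

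Only replicates 2, 3 and 4 could be paired. Their deviations correlated at -0.13, 0.42 and 0.14, so the numbers were not taken to pair the samples. With the replicate block all genes called were 219, against 262 for the same 6 libraries without it, and the log2 fold changes were 0.12 and 0.014 for Akt1, -0.037 and -0.098 for Akt2, 0.095 and 0.087 for Tbc1d4, and 0.065 and 0.039 for Pdpk1. The paired difference of the log2 ratio of Akt2 over Akt1 was -0.16.

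Over libraries left out, the log2 difference of the ratios ran from -0.51 to -0.04 for Irs2 over Irs1, 0.04 to 0.58 for Akt2 over Akt1, -0.32 to 0.053 for Insr over Igf1r (above 0 without Cd36KO replicate 4) and -0.10 to 0.86 for Slc2a4 over Slc2a1 (below 0 without Cd36KO replicate 3).

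The list genes called, 2 higher and 4 lower, were 0 and 0 with edgeR and with limma. With the muscle covariate 0 were higher, and with the white fat covariate 10. The stricter count filter and the replicate block gave 1 higher, independent filtering off 1 and 2, and the 6 libraries without the block 1 and 9. Over libraries left out the counts were 0 to 4 higher and 0 to 8 lower, with 0 and 0 without WT replicate 2, 4 higher without WT replicate 4 and 8 lower without WT replicate 1. Over all genes edgeR called 14, limma 0, independent filtering off 171, the muscle covariate 188, the white fat covariate 675, and fits with 1 library left out 69 to 507, against 284. Raw counts were only 40 to 138 for Irs1 and 42 to 117 for Igf1r. The SE of the log2 fold change was 0.33 for Irs1, 0.27 for Igf1r and widest for Irs2, at 0.57. The part of low counts in these values was not tested.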
